A study of Homo sapiens with 4 samples.

Results

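The 36 genes described here carry acetyl units into cholesterol and fatty acids, sense the cell's sterol level, or move cholesterol between and out of membranes. They were chosen by name as genes of these pathways, with earlier results of these data known. All 36 were found among the 18134 genes of the deposited expression table. They fall into 8 genes of the mevalonate steps, 10 genes that turn squalene into cholesterol, 4 genes of SREBP control, 5 sterol transport genes and 9 fatty acid genes. All 36 passed the filter on low counts that left 14048 genes for testing.

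PC9 cells are an established line from a human lung adenocarcinoma. The cells had been infected with lentivirus carrying either a short hairpin against TPX2 (shTPX2) or a negative control hairpin (shNC), and antibiotic selection then gave stable lines. Both lines therefore carried a lentiviral hairpin and had gone through the same selection, and they were grown in DMEM with serum, with no further treatment. Poly(A) RNA of each line was sequenced as 2 libraries, all 4 labelled with the same batch, at 20906441 to 21972583 expected counts per library. The labels do not say whether the libraries of a line came from separate cultures, so p-values measure only the spread between these libraries, which may be technical.

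As background, sterol regulatory element-binding proteins (SREBPs) are membrane-bound transcription factors that are held in the endoplasmic reticulum while sterols are plentiful. When sterols run low, the escort protein SCAP carries them to the Golgi, where they are cut free to switch on genes of cholesterol and fatty acid synthesis. INSIG proteins retain the complex when sterols are high, and oxysterol-driven nuclear receptors switch on the cholesterol exporters ABCA1 and ABCG1. Tumor cells draw on both synthesis routes for membranes.

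TPX2, the spindle assembly factor that the hairpin targets, was at 55.0 and 112 TPM (transcripts scaled for length and to the same library total) in shNC 1 and shNC 2, and at 43.4 and 43.8 TPM in shTPX2 1 and shTPX2 2. The shTPX2 libraries lay below both shNC libraries, with a log2 fold change (shTPX2 over shNC) of -0.81 (SE 0.32) and an adjusted p of 0.618 in edgeR's quasi-likelihood test. Against shNC 1 alone, that is without shNC 2, the log2 fold change of TPX2 was -0.24, and against shNC 2 alone it was -1.21. Summed over 10 lung epithelial or adenocarcinoma markers, the libraries reached 20378 to 27928 TPM, mostly from keratins, while the lung-lineage markers NKX2-1, SFTPB and NAPSA were at 1.67 TPM or below. Of 6 fibroblast markers, 5 were under 1 TPM in every library. The other marker sums were 131 to 228 TPM over 6 blood cell genes, nearly all from CD68, and 19.9 to 36.5 TPM over 4 endothelial genes. The endothelial genes did not move together. CDH5 was at 14.4 and 18.1 TPM in shNC but at 26.7 and 30.5 TPM in the shTPX2 libraries. PECAM1 leaned the other way, at 5.38 and 14.4 TPM in shNC and at 4.20 and 5.92 TPM in shTPX2 cells, with overlapping groups. VWF and KDR were at 0.17 TPM or below in every library. The part of these markers in the results was not tested. In bulk RNA, fewer cells of a type and less RNA per cell cannot be told apart.

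The sterol and fatty acid genes leaned lower in shTPX2 cells. The log2 fold change was below 0 for 32 of the 36 genes and above 0 for 4, and its median was -0.50, against -0.0085 over all tested genes, of which 51.1% were below 0. This lean rested on shNC 1, since without it the median was 0.07 and 21 of the 35 genes other than STARD4 were above 0. With the criteria of the study's methods, an unadjusted limma voom p not above 0.1 with a change of 0.3 or more on the log2 scale in either direction, 7 of the 36 genes were lower in shTPX2, where 7.99% of all tested genes were lower. These 7 genes were ACSS2, ELOVL6, HMGCS1, INSIG1, MSMO1, SQLE and STARD4. None of the 36 genes was higher by these criteria, against 6.24% of all tested genes. The 7 genes made up 19.4% of the 36.

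After adjustment over all tested genes, 0 of the 36 genes and 0 of the 14048 genes had an edgeR adjusted p under 0.05. At an unadjusted edgeR p under 0.05, 6 of the 36 genes were lower and 0 higher, beside 4.9% and 3.13% of all tested genes. DESeq2 gave an adjusted p under 0.05 to 1 of the 36 genes, STARD4, beside 0.555% of all genes called lower. In CPM, which are counts scaled to the normalized library size, the groups did not overlap for 11 of the 36 genes (30.6%), all lower in shTPX2, and 20.2% of all tested genes had groups that did not overlap in this direction (39.6% in either direction). In TPM the groups did not overlap for 15 of the 36 genes, again all lower, beside 30.3% of all tested genes.

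The control libraries were far apart for most of these genes, and the group values of those genes rest on that spread. shNC 1 was the highest of the 4 libraries in 31 of the 36 genes (86.1%), against 22.4% of all tested genes. The CPM of shNC 1 exceeded that of shNC 2 by more than 1.5 times in 28 of the 36 genes and in 7.29% of all tested genes. For the typical gene of the set shNC 1 was 1.98 times shNC 2, while over all tested genes this ratio was 0.997. Summed over the 36 genes, the level was 7233 TPM in shNC 1, 4330 TPM in shNC 2, and 3321 and 4070 TPM in the respective shTPX2 libraries. Of these sums, the transport gene NPC2 alone gave 1448, 1979, 951 and 1566 TPM in the same order. shNC 2 was the lowest library in 17 of the 36 genes, beside 4229 of the 14048 tested genes. Across all tested genes the Pearson r of log2 CPM was 0.972 between the shNC libraries and 0.979 between the shTPX2 libraries. Between libraries of different groups it ranged from 0.966 to 0.983, a description across genes that are not independent replicates.

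**Figure D1:**
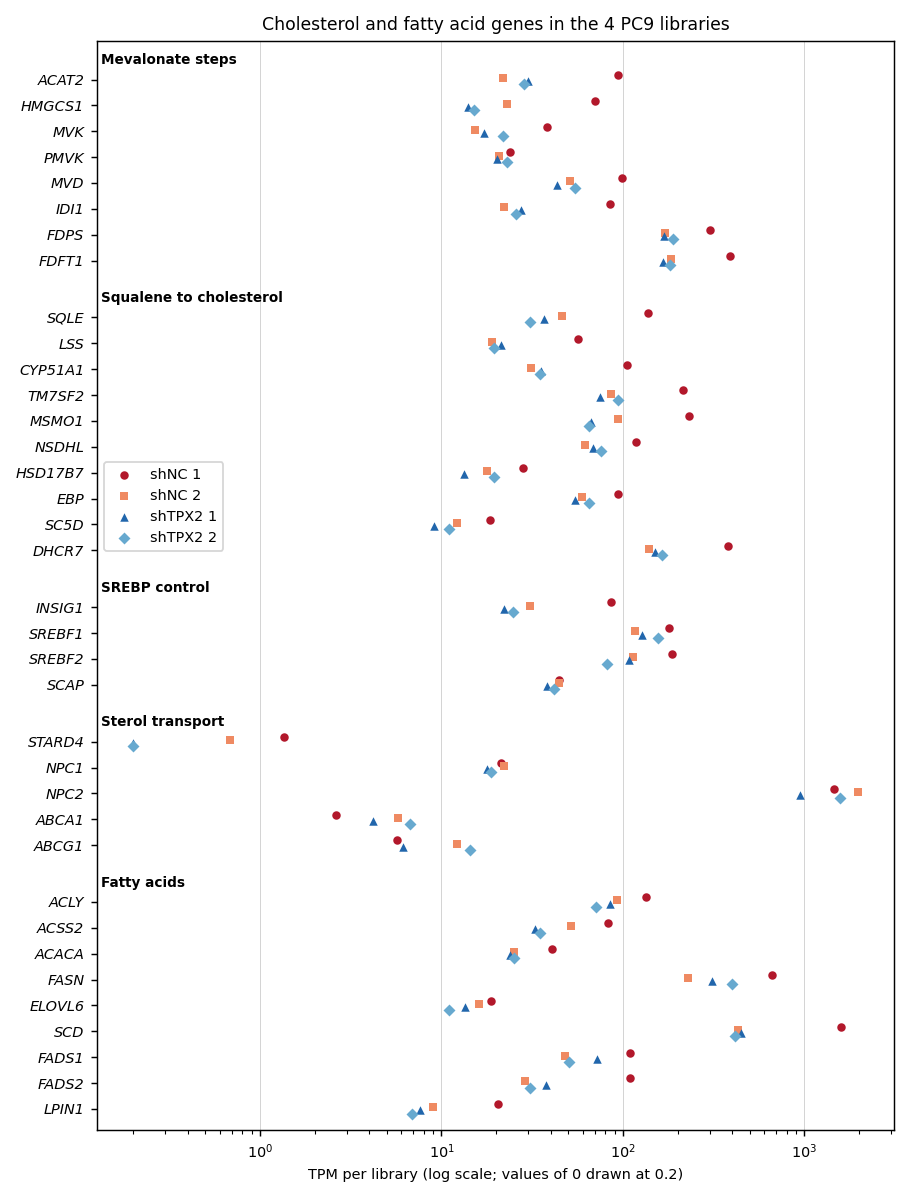
TPM of the 36 genes on a log axis, grouped by role, with 1 point for each of the 4 libraries. shNC 1 (red circles) lies to the right of the other libraries in most genes of the first 3 groups and of the fatty acid group, and shNC 2 (orange squares) lies among the shTPX2 libraries (blue) for many of them.

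Promoter stretches of genes called lower, and of SREBF2, which was not called, are shown as a description of sequence. As background, SREBPs act at sterol regulatory elements together with the factor NF-Y, which binds the CCAAT box. Whether they act at the stretches shown here was not tested. A window from 250 bases before to 50 bases after a RefSeq start site was held for 31 of the 36 genes. On either strand, CCAAT occurred in the windows of 22 of these 31 genes (71%), against 39.7% of 27305 genes with a window. The letters CACNCCAC, a core of the sterol regulatory element, occurred in 7 of the 31 genes (22.6%), against 7.05% of all genes with a window. The 7 genes were ABCA1, ACACA, IDI1, INSIG1, SC5D, SCD and SREBF2. A match is a description of letters and not a bound site, and no match says only that the letters are not in this window.

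The stretches below are RefSeq GRCh38.p14 sequence, 5′ to 3′ on the strand of the gene. Capitals mark CCAAT or its reverse complement ATTGG, and in INSIG1 and SREBF2 also the sterol element core. None of the marked matches overlap. ACSS2 lies at chr20:34874851-34874885 on the plus strand, HMGCS1 at chr5:43313493-43313582 on the minus strand, INSIG1 at chr7:155297655-155297727 on the plus strand, MSMO1 at chr4:165327469-165327654 on the plus strand, STARD4 at chr5:111512646-111512711 on the minus strand, and SREBF2, the gene of the sterol-directed SREBP, at chr22:41832958-41833018 on the plus strand.
ACSS2: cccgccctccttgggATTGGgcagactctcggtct
HMGCS1: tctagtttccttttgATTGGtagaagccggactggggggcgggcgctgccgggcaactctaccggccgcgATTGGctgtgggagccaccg
INSIG1: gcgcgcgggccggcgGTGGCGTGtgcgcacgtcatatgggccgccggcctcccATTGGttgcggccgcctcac
MSMO1: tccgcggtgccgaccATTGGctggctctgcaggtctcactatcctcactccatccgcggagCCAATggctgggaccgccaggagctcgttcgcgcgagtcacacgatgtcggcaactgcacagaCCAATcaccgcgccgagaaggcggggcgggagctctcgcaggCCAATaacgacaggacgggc
SREBF2: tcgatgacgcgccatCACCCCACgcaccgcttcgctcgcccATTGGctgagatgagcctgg
STARD4: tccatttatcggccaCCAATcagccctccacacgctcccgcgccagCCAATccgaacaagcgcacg

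MSMO1 held 4 CCAAT boxes, HMGCS1 and STARD4 held 2 each, and the other stretches held 1. INSIG1 was the only one of the 7 lower genes whose window held the sterol element core, whereas ELOVL6 held neither motif and SQLE had no window to search.

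The mevalonate steps build the isoprenoid units of cholesterol from acetyl-CoA. Of the 8 genes, 7 had a log2 fold change below 0, with a median of -0.55, and 1, HMGCS1, passed the study's criteria as lower. HMGCS1 encodes HMG-CoA synthase, an early enzyme of the pathway. It was at 70.2 and 22.9 TPM in shNC 1 and shNC 2, and at 13.9 and 15.2 TPM in shTPX2 1 and shTPX2 2. The groups did not overlap, although shNC 1 was 3.18 times shNC 2 in CPM. Its log2 fold change was -1.58 (SE 0.49), with an unadjusted p of 0.0412 in limma voom and an adjusted p of 0.579 in edgeR's quasi-likelihood test. With shNC 1 left out it was -0.51 and with shNC 2 left out -2.19, so HMGCS1 stayed lower against either control library.

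ACAT2, the thiolase that joins the acetyl units ahead of HMGCS1, had the widest gap between the controls among the 36 genes. Its level was 94.0 TPM in shNC 1 and 21.96 TPM in shNC 2, with 29.9 and 28.6 TPM in the shTPX2 libraries. The shTPX2 values thus stood between the 2 control values, and the log2 fold change of -0.87 (SE 0.60) became 0.56 without shNC 1. IDI1, the isomerase of the isoprenoid units, had the same order, with 84.9 TPM in shNC 1, 22.03 TPM in shNC 2, with 27.5 and 25.9 TPM in shTPX2 cells. Its log2 fold change was -0.84 (SE 0.54).

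The remaining mevalonate enzymes were nearer to each other. MVK, mevalonate kinase, was at 38.1, 15.4, 17.2 and 21.9 TPM in shNC 1, shNC 2, shTPX2 1 and shTPX2 2. MVD, the decarboxylase, was at 98.5, 51.2, 43.3 and 54.5 TPM in the same order. FDPS, which joins isoprenoid units into farnesyl diphosphate, was at 302, 170, 169 and 188 TPM. In all 3 genes shNC 2 fell within or beside the range of the shTPX2 libraries, and the log2 fold changes were -0.35 (SE 0.42), -0.50 (SE 0.32) and -0.29 (SE 0.28). PMVK, phosphomevalonate kinase, hardly varied, with 23.9 and 20.7 TPM in shNC, with 20.3 and 22.9 TPM in shTPX2 cells, and its log2 fold change was 0.08 (SE 0.23). FDFT1, squalene synthase and the entry to sterols, was at 390 and 184 TPM in shNC and at 167 and 181 TPM in shTPX2 cells, with a log2 fold change of -0.61 (SE 0.35). FDPS and HSD17B7 have near-identical pseudogenes, so their counts depend on how the authors' counting shared out reads.

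The enzymes that close the rings of squalene and trim the product to cholesterol were below 0 in all 10 of the 10 genes, with a median log2 fold change of -0.66. SQLE and MSMO1 passed the study's criteria as lower, and shNC 1 was the highest library in all 10. SQLE, squalene epoxidase, catalyses a rate-limiting oxidation. It was at 138 and 46.4 TPM in shNC 1 and shNC 2, and at 36.8 and 30.8 TPM in the shTPX2 libraries. The groups did not overlap, and the log2 fold change was -1.33 (SE 0.48), with an unadjusted limma voom p of 0.0619 and an edgeR adjusted p of 0.597. Without shNC 1 it was -0.30. MSMO1, which removes methyl groups from the sterol ring, was at 231 and 94.5 TPM in shNC and at 67.02 and 64.66 TPM in shTPX2 cells. These groups did not overlap either. MSMO1 had a log2 fold change of -1.18 (SE 0.41), an unadjusted limma voom p of 0.0421 and an edgeR adjusted p of 0.587, and it was -0.36 without shNC 1.

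In SC5D, a sterol desaturase, the groups did not overlap but the gene missed the study's criteria. Its levels were 18.5 and 12.2 TPM in shNC, with 9.14 and 11.0 TPM in shTPX2 cells, for a log2 fold change of -0.49 (SE 0.25) and an unadjusted limma voom p of 0.117. The other 7 enzymes had shNC 2 within or below the shTPX2 levels in CPM. LSS, which folds oxidized squalene into lanosterol, was at 56.4 TPM in shNC 1 and at 19.1 TPM in shNC 2, with 21.2 and 19.4 TPM in shTPX2 cells. CYP51A1, the demethylase of lanosterol, was at 105 TPM in shNC 1, 31.1 TPM in shNC 2, with 35.3 and 35.0 TPM in shTPX2 cells. DHCR7, the reductase that makes cholesterol in the last step of one branch, was at 380 TPM in shNC 1, 139 TPM in shNC 2, with 150 and 165 TPM in shTPX2 cells. For these 3 genes the shTPX2 libraries were close to shNC 2 and far under shNC 1, and their log2 fold changes were -0.86 (SE 0.47), -0.85 (SE 0.52) and -0.61 (SE 0.44).

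TM7SF2, a sterol reductase, was at 214 and 85.7 TPM in shNC and at 74.5 and 93.7 TPM in shTPX2 cells. NSDHL, a sterol dehydrogenase, was at 118 and 61.5 TPM in shNC and at 68.1 and 75.7 TPM in shTPX2 cells. In both genes shNC 2 was nearer to the shTPX2 libraries than to shNC 1. HSD17B7, which works beside NSDHL, was at 28.2, 17.8, 13.3 and 19.5 TPM in shNC 1, shNC 2, shTPX2 1 and shTPX2 2, and EBP, a sterol isomerase, was at 93.7, 59.4, 54.6 and 65.3 TPM in that order. The log2 fold changes were -0.72 (SE 0.41) for TM7SF2, -0.19 (SE 0.31) for NSDHL, -0.37 (SE 0.33) for HSD17B7 and -0.23 (SE 0.26) for EBP, and none passed the study's criteria.

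**Figure D2:**
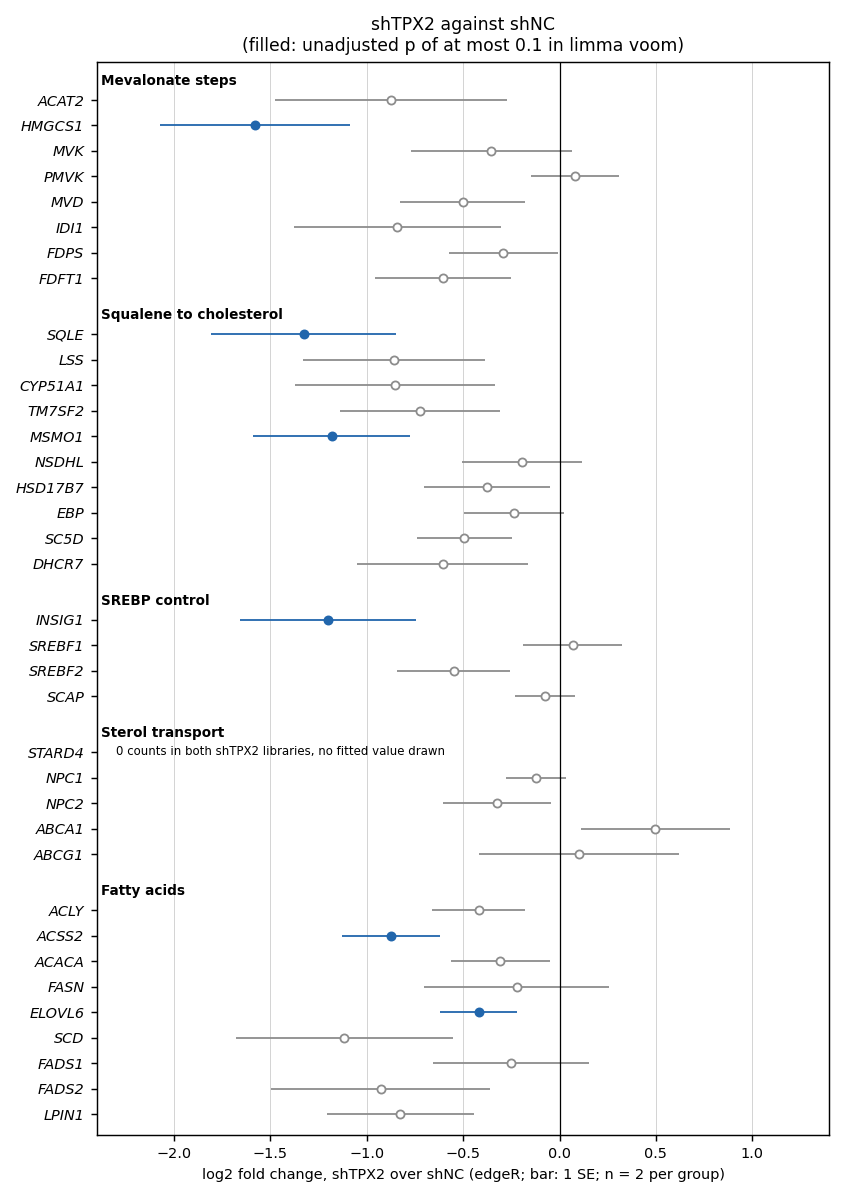
edgeR log2 fold change of each gene, shTPX2 over shNC, with a bar of 1 SE on each side and 2 libraries per group; filled points mark genes at the study's criteria. The points left of 0 include all 10 genes from squalene to cholesterol and all 9 fatty acid genes, and the filled ones run from -1.58 for HMGCS1 to -0.42 for ELOVL6. STARD4 is not drawn, because its fitted value rests on 0 counts in both shTPX2 libraries and only a bound is given.

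Of the SREBP control genes, INSIG1 alone passed the study's criteria. INSIG1 encodes the protein that retains the SCAP complex and is itself an SREBP target. It was at 86.5 and 30.8 TPM in shNC 1 and shNC 2, and at 22.2 and 24.9 TPM in shTPX2 1 and shTPX2 2, with no overlap. INSIG1 had a log2 fold change of -1.20 (SE 0.46), an unadjusted limma voom p of 0.0790 and an edgeR adjusted p of 0.606, and without shNC 1 the value was -0.23. SREBF2 encodes the SREBP that chiefly drives sterol genes. Its levels were 186 and 114 TPM in shNC, with 107 and 81.6 TPM in shTPX2 cells, and its log2 fold change was -0.55 (SE 0.29), with an unadjusted limma voom p of 0.121. It was -0.12 without shNC 1 and -0.88 without shNC 2. The groups of SREBF2 did not overlap in TPM but overlapped in CPM, where shNC 2 lay between the shTPX2 libraries.

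SREBF1, the SREBP gene linked chiefly to fatty acid synthesis, did not lean the same way. It was at 178 and 117 TPM in shNC and at 127 and 157 TPM in shTPX2 cells, so the shTPX2 libraries lay inside the control range. The log2 fold change was 0.07 (SE 0.26), and it was -0.23 without shNC 2. SCAP, the escort, was nearly level at 44.6 and 44.3 TPM in shNC, with 38.1 and 41.7 TPM in shTPX2 cells. Its log2 fold change was -0.08 (SE 0.15) even though its groups did not overlap.

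Among the sterol transport genes STARD4 stood out. STARD4 encodes a soluble carrier that shuttles cholesterol between membranes. Its expected counts were 45.69 and 18 in shNC 1 and shNC 2, or 1.35 and 0.68 TPM, and 0 in both shTPX2 libraries. Taking 3 counts in each shTPX2 library as the floor, STARD4 was at least 10.2-fold lower in shTPX2, and at least 5.65-fold lower against shNC 2 alone. The unadjusted limma voom p was 0.000213, the edgeR adjusted p 0.439 and the DESeq2 adjusted p 0.00894, so the call at an adjusted p depended on the tool. Over the whole series 4 genes had 0 counts in both shTPX2 libraries and at least 10 in both shNC libraries, and 0 genes had the reverse. A gene on the opposite strand shares exon bases with STARD4, and the strand setting of the counting is not given in the sources used here. The deposited group averages of its expected count ran the other way, at 150.5 for shNC and 268.4 for shTPX2. These averages are not the means of the listed libraries, and which libraries entered them is not given.

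The other 4 transport genes did not pass the study's criteria. NPC1 encodes the lysosomal membrane protein that lets cholesterol out of lysosomes. It was at 21.3 and 22.2 TPM in shNC and at 17.8 and 18.8 TPM in shTPX2 cells, a log2 fold change of -0.12 (SE 0.16). NPC2, its soluble partner in the lysosome, was the most abundant gene of the set in shNC 2, at 1979 TPM beside 1448 TPM in shNC 1, and was at 951 and 1566 TPM in the shTPX2 libraries. Its log2 fold change was -0.32 (SE 0.28). NPC1 and NPC2 lacked the excess of shNC 1 over shNC 2, with ratios of 0.984 and 0.752 in CPM.

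The exporters ABCA1 and ABCG1 had the opposite order of the control libraries. ABCA1, which loads cholesterol onto apolipoproteins, was at 2.62 and 5.75 TPM in shNC 1 and shNC 2, and at 4.20 and 6.67 TPM in the shTPX2 libraries. ABCG1, which exports sterols to lipoproteins, was at 5.66 and 12.1 TPM in shNC and at 6.12 and 14.3 TPM in shTPX2 cells. In both genes shNC 1 was the lowest library, at 0.475 and 0.413 times shNC 2 in CPM. The log2 fold changes were 0.50 (SE 0.39) for ABCA1 and 0.10 (SE 0.52) for ABCG1, and the value of ABCG1 turned to -0.61 without shTPX2 2 and to -0.39 without shNC 1.

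Fatty acid synthesis starts from cytosolic acetyl-CoA and ends in elongated and desaturated chains. The log2 fold change was below 0 in 9 of its 9 genes, with a median of -0.42, and ACSS2 and ELOVL6 passed the study's criteria as lower. ACSS2 makes acetyl-CoA from acetate. It was at 82.8 and 52.0 TPM in shNC 1 and shNC 2, and at 32.8 and 34.9 TPM in shTPX2 cells, with no overlap. This gave a log2 fold change of -0.87 (SE 0.25), with an unadjusted limma voom p of 0.0165 and an edgeR adjusted p of 0.579. ELOVL6, which lengthens saturated chains, was at 18.8 and 16.1 TPM in shNC and at 13.5 and 11.0 TPM in shTPX2 cells. ELOVL6 differed little between the control libraries, at a ratio of 1.08, and its log2 fold change of -0.42 (SE 0.20) was -0.35 without shNC 1 and -0.48 without shNC 2. Its unadjusted limma voom p was 0.0777 and its edgeR adjusted p 0.660.

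LPIN1, a phosphatidate phosphatase of glycerolipid synthesis, was at 20.4 and 9.03 TPM in shNC and at 7.57 and 6.87 TPM in shTPX2 cells. Its groups did not overlap, but its limma voom p of 0.134 missed the study's criteria, at a log2 fold change of -0.83 (SE 0.38). This value was -0.09 without shNC 1 and -1.32 without shNC 2. ACLY, which makes acetyl-CoA from citrate, was at 134 and 93.1 TPM in shNC and at 84.8 and 71.3 TPM in shTPX2 cells. ACACA, the carboxylase that forms malonyl-CoA, was at 40.6, 25.2, 23.8 and 25.0 TPM in shNC 1, shNC 2, shTPX2 1 and shTPX2 2. The log2 fold changes of ACLY and ACACA were -0.42 (SE 0.24) and -0.31 (SE 0.26).

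FASN, the synthase that assembles palmitate, showed how far the controls decided a value. It was at 667 TPM in shNC 1 and 227 TPM in shNC 2, with 311 and 398 TPM in the shTPX2 libraries. Its log2 fold change was -0.22 (SE 0.48), and it was 0.79 without shNC 1 and -0.82 without shNC 2. SCD, the desaturase of saturated chains, was the most abundant gene of the set in shNC 1, at 1592 TPM, and was at 430 TPM in shNC 2 and at 447 and 414 TPM in shTPX2 cells. SCD had a log2 fold change of -1.12 (SE 0.56), with an unadjusted limma voom p of 0.193.

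FADS1 and FADS2, the neighbouring desaturases of polyunsaturated chains, lie on opposite strands and overlap at one end, where their reads cannot be told apart without strand. FADS1 was at 110 and 48.1 TPM in shNC and at 71.6 and 50.4 TPM in shTPX2 cells. FADS2 was at 110 and 28.7 TPM in shNC and at 37.7 and 30.6 TPM in shTPX2 cells. For both, the shTPX2 libraries lay between the control libraries, and the log2 fold changes were -0.25 (SE 0.40) and -0.93 (SE 0.57). In all, 17 of the 36 genes share exon bases with a gene on the opposite strand in GENCODE, HMGCS1, STARD4 and SREBF2 among them.

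**Figure D3:**
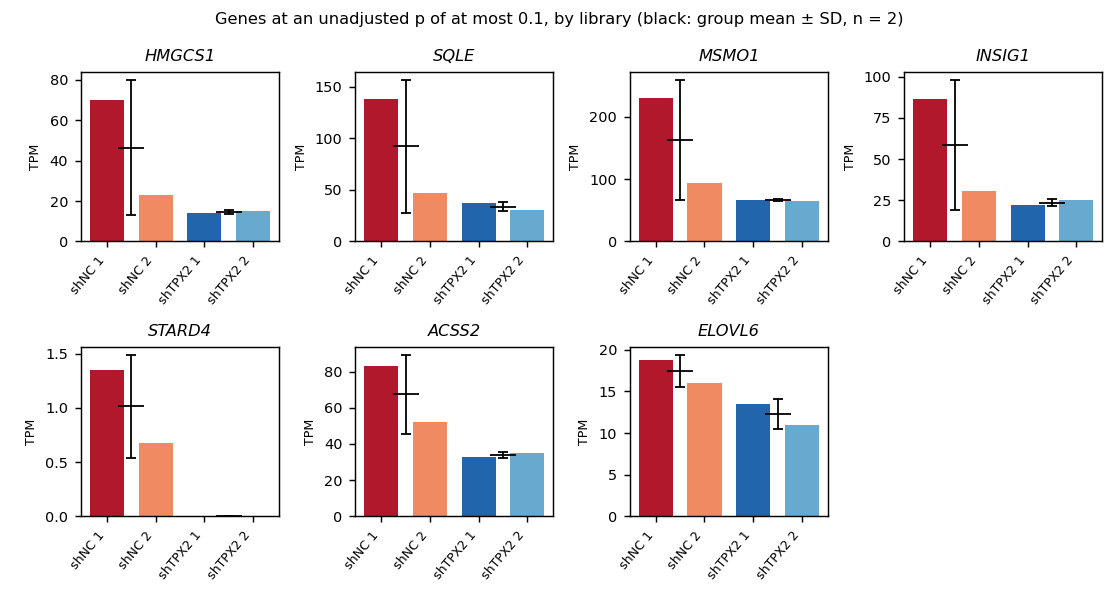
TPM of the 7 genes at the study's criteria in each of the 4 libraries, as bars from 0, with the group mean ± SD of 2 libraries in black. Both shTPX2 bars stand below both shNC bars in each gene, STARD4 is at 0 in shTPX2, and the shNC bars differ least in ELOVL6 (18.8 and 16.1 TPM).

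Leaving out either control library changed the values of the set. In these fits the lone control library is assumed to vary as the shTPX2 libraries do. Without shNC 1, the median log2 fold change of the 36 genes was 0.07, and of the 35 genes other than STARD4, 14 were below 0 and 21 above. At the study's criteria 3 genes were then lower (ACSS2, HMGCS1 and STARD4), where 13.6% of all genes tested were lower. Another 3 genes were then higher (ACAT2, FASN and SREBF1), where 10.7% were higher. Without shNC 2, the median was -0.88, and 33 of the 35 genes were below 0. At the study's criteria 29 genes were then lower, against 7.16% of all genes tested, and 1, ABCA1, was higher, against 5.98%. HMGCS1, SQLE and INSIG1 had edgeR adjusted p-values of 0.0145, 0.0378 and 0.0378 in that comparison.

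By role, the median log2 fold change without shNC 1 was 0.21 for the mevalonate genes, 0.14 for the genes from squalene to cholesterol, -0.07 for SREBP control and 0.11 for fatty acids. Without shNC 2 the same medians were -0.99, -1.21, -0.56 and -0.82. The sterol transport genes moved the other way, from -0.39 without shNC 1 to -0.11 without shNC 2. STARD4 counts as the lowest gene of its group in these medians, which are the same with it at its bound. Over all tested genes the median was 0.0014 without shNC 1 and -0.0061 without shNC 2. In CPM the typical gene of the set was 1.04 times shNC 2 and 0.549 times shNC 1 in the mean of the shTPX2 libraries.

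**Figure D4:**
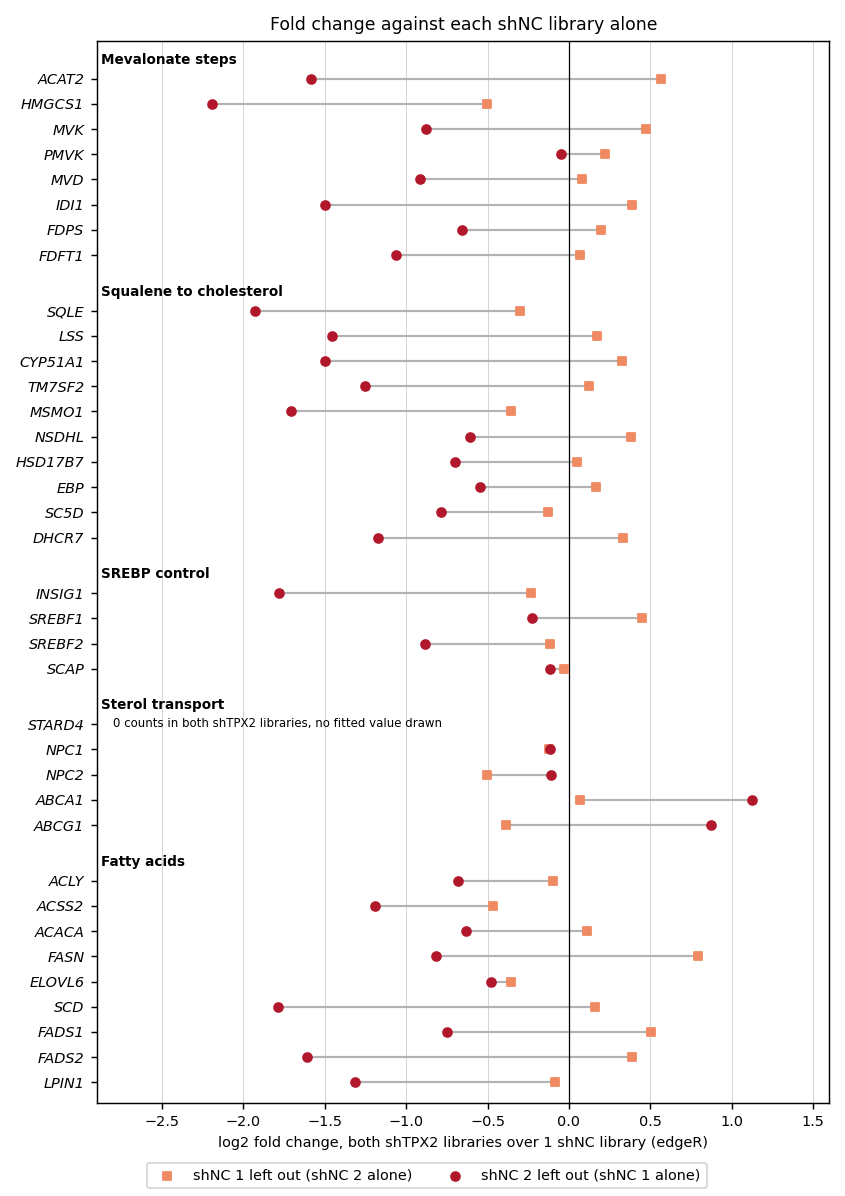
edgeR log2 fold change of both shTPX2 libraries over a single shNC library, with squares for shNC 2 alone and circles for shNC 1 alone, joined by a line for each gene. The lines cross 0 for 21 genes, and ELOVL6, ACSS2 and HMGCS1 lie left of 0 at both ends (for HMGCS1 -0.51 and -2.19).

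The rest of the pathways was read from 82 further genes named from general knowledge, of which 79 were in the table and 72 were tested. At the study's criteria 9 of the 72 were lower in shTPX2, beside 7.99% of all tested genes, and 3 were higher, beside 6.24%. Their median log2 fold change was -0.10, and 44 of the 72 were below 0. Their control libraries did not differ in the same way, with a median ratio of shNC 1 to shNC 2 of 0.987 and shNC 1 highest in 27.8% of them. The 9 other sterol synthesis genes included 0 at the study's criteria in either direction, and their median was -0.09.

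Among the 9 lower genes the smallest p-values were those of ACSL4, GRAMD1A, ELOVL5, GRAMD1C and OSBPL5. ACSL4, which activates polyunsaturated fatty acids, was at 88.6 and 122 TPM in shNC and at 59.3 and 41.8 TPM in shTPX2 cells, a log2 fold change of -0.93 (SE 0.25) with an edgeR adjusted p of 0.579. GRAMD1A, which moves cholesterol from the plasma membrane to the endoplasmic reticulum, was at 116 and 128 TPM in shNC and at 73.1 and 76.0 TPM in shTPX2 cells. Its log2 fold change was -0.58 (SE 0.16). GRAMD1C, of the same family, was at 6.59 and 8.95 TPM in shNC and at 4.88 and 3.68 TPM in shTPX2 cells. ELOVL5, an elongase of polyunsaturated chains, was at 78.9 and 72.3 TPM in shNC and at 48.7 and 48.4 TPM in shTPX2 cells, a log2 fold change of -0.51 (SE 0.16). OSBPL5, a lipid transfer protein of the oxysterol-binding family, was at 5.66 and 6.53 TPM in shNC and at 3.54 and 3.83 TPM in shTPX2 cells. The groups of these 5 genes did not overlap, and shNC 1 was not far above shNC 2 in any of them.

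The 3 higher genes were ACSL5, RXRA and SCARB1. ACSL5, another activator of long chains, was at 8.90 and 8.51 TPM in shNC and at 12.9 and 11.4 TPM in shTPX2 cells, a log2 fold change of 0.60 (SE 0.21). RXRA, the partner of the oxysterol-driven receptors, was at 68.8 and 59.6 TPM in shNC and at 81.9 and 75.8 TPM in shTPX2 cells. SCARB1, the receptor for high-density lipoprotein, was at 66.2 and 59.2 TPM in shNC and at 71.4 and 75.4 TPM in shTPX2 cells. The log2 fold changes of RXRA and SCARB1 were 0.42 (SE 0.18) and 0.35 (SE 0.17), and none of these 3 genes had an edgeR adjusted p under 0.05.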

How the data were processed

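The 36 genes, the further pathway genes, the marker lists and the tests were chosen with earlier results of these data known. The authors cleaned the reads with SOAPnuke. Their methods name HISAT2/Bowtie2 and RSEM or StringTie, while the submitters' processing notes name HISAT2, featureCounts and DESeq2 with GRCh38, so the counting tool is uncertain. What the authors deposited is an expected count for each gene in each library, not normalized for depth and not a whole number for 42.2% to 44.6% of the genes, and TPM and FPKM values scaled for length and depth. The deposited group averages entered no comparison of the groups. They are described only for STARD4 and in the flagged results below. FPKM was not used.

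Expected counts were rounded to 0 decimals. Genes kept by filterByExpr were tested with edgeR 4.0.16 (quasi-likelihood test, TMM factors of 0.959 to 1.05, Benjamini-Hochberg adjustment over 14048 genes) and, at the study's criteria, with limma 3.58.1 after voom, in R 4.3.3. DESeq2 1.42.0, other scalings, other filters, a replicate block and leaving out each library were alternatives. Scripts were tested on simulated data. TPM served for levels, and ratios between libraries used TMM-normalized CPM, with 0.5 CPM added for medians over genes and for counts of genes past a ratio. Where each library of a group had at most 3 counts of a gene, its fold was bounded against 3 counts per library, and this bound covers counting error only. The common dispersion of 0.0485 shows that the spread between libraries limits precision more than depth does, except for weakly expressed genes such as STARD4. Named were TPX2, all 36 genes, and at most the 5 higher and 5 lower further pathway genes with the smallest p at the study's criteria. With 2 libraries against 2, an exact permutation test of a single value cannot go below a two-sided p of 0.333.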

Additional observations from a re-analysis of the deposited data

Results flagged for a closer look

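STARD4 had 0 expected counts in both shTPX2 libraries, whereas the deposited group average of its expected count was 268.4 in shTPX2 and 150.5 in shNC. It was picked out because these average columns enter no comparison and hold a signal where the listed libraries hold none. An average of 2 libraries at 0 cannot be above 0, so the average columns cannot be the mean of the listed libraries alone. The expected-count averages equalled the mean of the 2 listed libraries within 0.02 for 2.99% of the genes in shNC and 3.4% in shTPX2, and for 0 of the 36 sterol and fatty acid genes. For 8 of the 36 genes in shNC and 30 in shTPX2 the average lay outside the range of the 2 listed libraries. Multiplied by 3, the shNC averages came out whole at the 2 decimals of a deposited count, within 0.0002, for 100% of 17716 genes, and multiplied by 2 for 33.1%. For shTPX2 this held for 100% of 17689 genes when multiplied by 4 and for 73.9% when multiplied by 2. These are the steps of averages over 3 and 4 libraries. Which libraries entered them is not given, and libraries other than the 4 listed were not analysed here.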

How the results depend on the processing

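Among the 35 genes other than STARD4, the direction of 14 held in every setting run. The other 21 turned when a library was left out, with no reversal under the other scalings, filters, tools or the block. When 1 library was left out, the log2 fold change ranged from -1.59 to 0.56 for ACAT2, -0.88 to 0.48 for MVK, -0.047 to 0.22 for PMVK, -0.92 to 0.079 for MVD, -1.50 to 0.39 for IDI1, -0.66 to 0.20 for FDPS, -1.07 to 0.070 for FDFT1, -1.46 to 0.17 for LSS, -1.50 to 0.33 for CYP51A1, -1.25 to 0.12 for TM7SF2, -0.61 to 0.38 for NSDHL, -0.70 to 0.050 for HSD17B7, -0.55 to 0.17 for EBP, -1.17 to 0.33 for DHCR7, -0.23 to 0.45 for SREBF1, -0.61 to 0.87 for ABCG1, -0.63 to 0.11 for ACACA, -0.82 to 0.79 for FASN, -1.79 to 0.16 for SCD, -0.75 to 0.50 for FADS1 and -1.61 to 0.39 for FADS2. SREBF1 turned to -0.23 without shNC 2 and to -0.052 without shTPX2 2, PMVK turned without shNC 2, ABCG1 turned without shNC 1 and without shTPX2 2, and the other 18 turned only without shNC 1. Genes that kept their direction still moved, and without shNC 1 and without shNC 2 the log2 fold changes were -0.47 and -1.19 for ACSS2, -0.30 and -1.93 for SQLE, -0.36 and -1.71 for MSMO1, -0.23 and -1.78 for INSIG1, -0.13 and -0.79 for SC5D, -0.10 and -0.68 for ACLY, -0.50 and -0.11 for NPC2 and 0.07 and 1.13 for ABCA1. Over the same settings, 3 to 29 of the 36 genes were lower and 0 to 3 higher at the study's criteria, beside 523 to 1969 and 495 to 1546 of all genes, and 0 to 20 and 0 to 5 of all genes were lower and higher at an edgeR adjusted p under 0.05. Without shTPX2 1, INSIG1 was lost, SREBF2 was lower and ABCA1 was higher at the study's criteria. Without shTPX2 2, ELOVL6, INSIG1 and SQLE were lost and NPC2 was lower. The bound of STARD4 ran from 5.65-fold to 14.7-fold.

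With library sizes alone in place of TMM factors, 11 of the 36 genes were lower, and over all genes 578 were higher and 1445 lower, so that 28.6% of the calls were higher against 43.8% with TMM. INSIG1 was lost with no filter on low counts, and STARD4 was not tested where 10 counts were required in every library. Log2 fold changes and SE are printed from edgeR, while the study's criteria were applied to limma voom. With edgeR at the same criteria, 10 of the 36 genes were lower and 0 higher, with LPIN1, SC5D and SCD added. Over all genes, 1161 were then lower and 876 higher. With an adjusted p in place of the unadjusted p, 0 of the 36 genes were lower, and over all genes 0 were higher and 1 was lower. By DESeq2, 33 genes passed an adjusted p of 0.05 as higher and 78 as lower. With the library number as a block, 13 of the 36 genes were lower and 1 was higher at the study's criteria, while over all genes 1363 were lower and 1084 higher, against 1122 and 876 without the block. The numbers are not shown to pair the libraries, since deviations of same-numbered libraries correlated at 0.182 over only 2 pairs and the labels do not say what the numbers mark. The cause of these changes was not tested.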
